A study of Mus musculus with 6 samples.

Results

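The 10 genes described here, Comp, Chad, Cilp, Cilp2, Angptl7, Ccn5, Mgp, Prg4, Ecrg4 and Thbs4, are matrix and secreted protein genes of cartilage that have also been linked to fibroblasts of the late infarct scar. They were chosen with earlier results of these data known. Matched by symbol in the array annotation, each had 1 of the 22206 features on the array. RNA from whole hearts of 6 male mice was measured on Clariom S mouse arrays after myocardial infarction, which had been induced at 8 weeks of age by ligation of the left coronary artery. Mice whose ejection fraction was above 45% at day 2 had been removed. The study asked, as its title states, what direct reprogramming in the living animal does in chronic infarction. The 3 groups held 2 hearts each, which the series design describes as independent biological replicates. Control mice carried Tcf21iCre and Tomato and were sampled 2 months (8W-Ctrl) or 3 months (12W-Ctrl) after infarction. TTg mice carried Tcf21iCre, Tomato and MGTH2A, which encodes Mef2c, Gata4, Tbx5 and Hand2, and their hearts were also taken at 3 months (12W-TTg). All 3 groups were infarcted and all carried the Cre and the reporter, so neither the infarct nor the Cre differs between them and no uninjured heart is among the arrays. In these mice the Tcf21 promoter drives the Cre, and Tcf21 is active in fibroblasts but also in epicardial cells. There is no TTg group at 2 months, so the transgene is compared at equal age only at 3 months, and the age of the scar only in controls.

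After an infarct, resident fibroblasts proliferate, become contractile matrix-producing cells, and later settle in the mature scar in a quieter state. Fibroblasts of that late state, named matrifibrocytes, have been described as expressing matrix genes otherwise typical of cartilage, bone and tendon, and Comp, Chad and Cilp2 are among the genes used to mark them. The proteins fall into a few roles: organisers of collagen fibrils (Comp, Thbs4, Chad), matrix proteins that bind growth factors (Cilp and its paralogue Cilp2), secreted signalling modulators (Angptl7, Ccn5, Ecrg4), an inhibitor of calcification (Mgp) and a lubricant of joint and tendon surfaces (Prg4).

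The deposited values are on a log2 scale, on which a difference of 1 is a doubling, and array medians lay between 4.91 and 5.0. Replicates correlated across features at r = 0.984 in the 2-month controls, 0.986 in the 3-month controls and 0.989 in TTg. Mef2c was at 15.93 and 13.94 in TTg against 12.07 to 12.87 in the controls, and Tbx5 at 10.72 and 9.31 against 6.42 to 7.98. Gata4 and Hand2 were at 14.05 and 13.43 and at 9.40 and 8.13 in TTg, against 12.80 to 13.75 and 7.03 to 8.01 in the controls. Among the arrays, 2 stood apart in genes of other tissues. Replicate 1 of the 2-month controls held adipocyte and skeletal muscle transcripts, with Adipoq at 10.34 against 3.98 to 4.83 on the other arrays and Myh2 at 10.51 against 3.31 to 3.81. Replicate 2 of the 3-month controls had low atrial transcripts, with Myl7 at 3.45 against 9.73 to 12.39. Values without these arrays are given for the main counts and for many of the differences of the 10 genes. Genes of the other lists are given with all arrays.

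In TTg hearts, 9 of the 10 genes had a lower mean than in control hearts of the same age, and Cilp2 did not. The median of the 10 differences was −2.30 on the log2 scale, against 0.01 over all features, of which 48.3% were lower. Comp had the lowest difference of all 22206 features, and Ccn5, Angptl7, Ecrg4 and Cilp stood at ranks 9, 16, 19 and 29 from the lowest. None of the 10 passed limma's test at an adjusted p under 0.05, a threshold that 1 of all features (0.0045%) passed. That feature was Jchain, an antibody gene named here after its values were seen. At an unadjusted p under 0.05, 5 of the 10 were lower (Comp, Angptl7, Ccn5, Ecrg4 and Thbs4), against 4.11% of all features. The values of TTg lay wholly below those of the 3-month controls in 6 of the 10, the same 5 and Mgp, against 19.3% of all features. Because the 10 genes were chosen with earlier results of these data known, their ranks and counts describe them and are no test of the list. These are whole-heart samples, in which fewer fibroblasts and less RNA per fibroblast cannot be told apart.

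Single arrays weighed heavily on these figures. Without replicate 2 of the 3-month controls, the array low in atrial transcripts, the median difference was −3.30, 8 of the 10 genes had an unadjusted p under 0.05 (5.79% of all features were lower at that p) and 9 did not overlap (36.3%). Leaving out replicate 1 of the 3-month controls moved the median to −1.14 and left 2 genes at that p (1.73% of all features). The median was −0.96, again with 2 genes (2.03%), without replicate 2 of TTg. All 10 genes lay wholly below the controls when replicate 1 of TTg was left out, with 33.6% of all features doing so. The count of lower genes was 9 or 10 of 10 under each array left out.

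**Figure D1:**
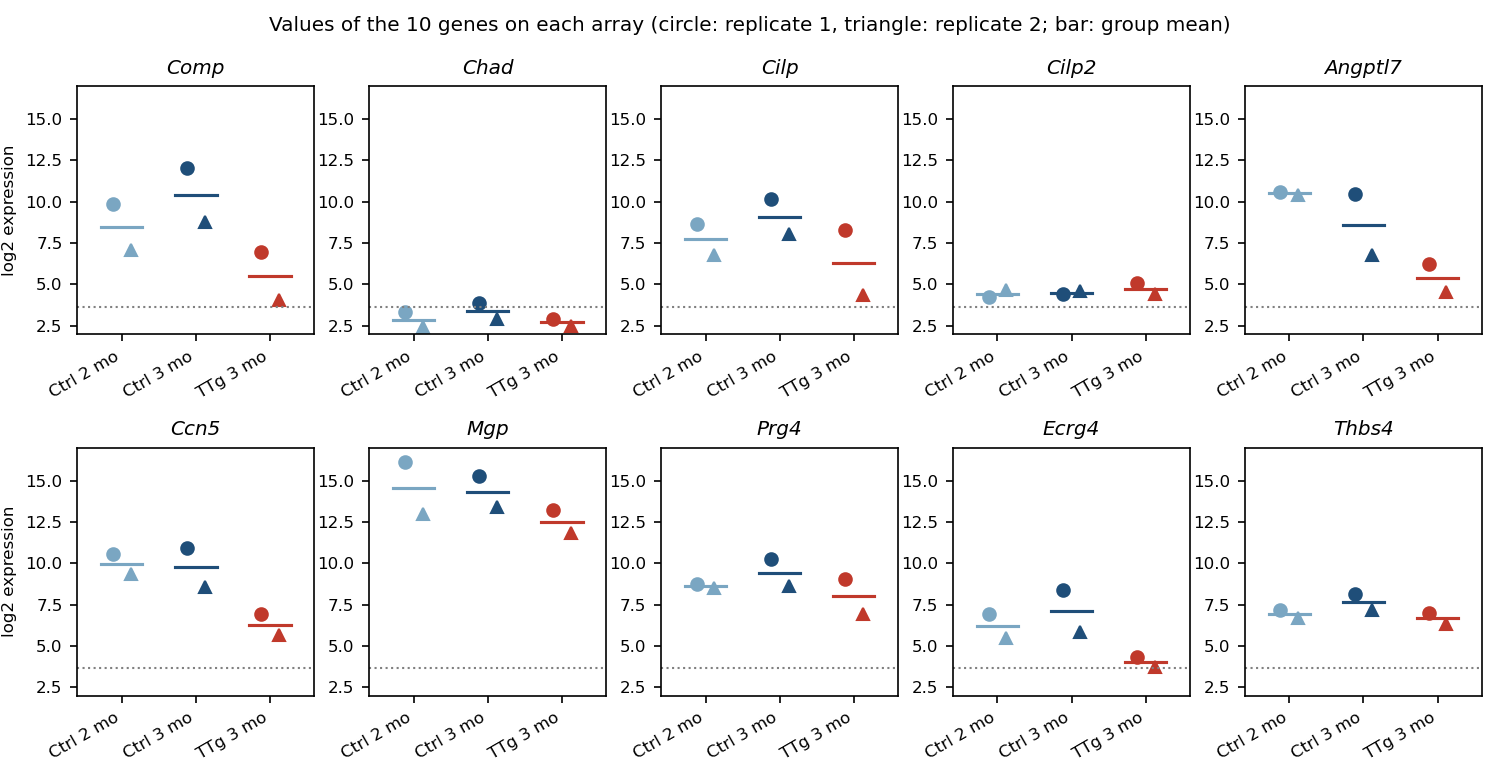
Log2 expression (vertical axis) of each of the 10 genes in the 3 groups (horizontal axis), with replicate 1 as a circle, replicate 2 as a triangle, the group mean as a bar and the 30th percentile of all features (3.65) as a dotted line. Comp, Angptl7, Ccn5, Mgp, Ecrg4 and Thbs4 have both TTg values below both 3-month control values, Chad lies mostly under the dotted line, and Cilp2 stays between 4.23 and 5.09.

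Comp encodes cartilage oligomeric matrix protein, a thrombospondin that binds collagen and helps fibrils assemble. Its values were 9.88 and 7.07 in the 2-month controls, 12.02 and 8.80 in the 3-month controls and 6.99 and 4.06 in TTg. The highest array was thus a 3-month control and the lowest a TTg heart, a span of 7.96, the widest of the 10 genes. TTg differed from the 3-month controls by −4.88 ± 1.39 (SE, n = 2 per group), a 29.5-fold lower mean with a 95% interval of −8.16 to −1.61 and a limma adjusted p of 0.661. In every group replicate 1 lay above replicate 2, by 2.81, 3.22 and 2.93, and the difference exceeded each of these distances. It was −6.50 without replicate 2 of the 3-month controls and −3.27 without replicate 1. Against the 2-month controls TTg differed by −2.95 ± 1.39, which became −1.54 without replicate 1 of those controls and −1.49 without replicate 2 of TTg. The 3-month controls exceeded those at 2 months by 1.94 ± 1.39, with overlapping values and a range of 0.33 to 3.54 over the arrays left out.

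Thbs4, a thrombospondin close to Comp that is induced in stressed heart muscle and in tendon, had a much narrower range. It was at 7.17 and 6.69 in the 2-month controls, 8.11 and 7.15 in the 3-month controls and 7.01 and 6.30 in TTg. TTg lay below the 3-month controls by 0.97 on the log2 scale with an SE of 0.40 (1.97-fold, limma adjusted p = 0.665), and the lower of the 3-month controls was only just above the higher TTg heart. The difference was −0.49 without replicate 1 of the 3-month controls, −0.62 without replicate 2 of TTg and −1.46 without replicate 2 of the 3-month controls. The values of TTg and of the 2-month controls overlapped, with a difference of −0.28 ± 0.40.

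All 3 other thrombospondins had lower means in TTg than in the 3-month controls, with groups that did not overlap (19.3% of all features). Thbs1, an activator of latent TGF-beta, was at 5.95 and 5.79 in the 2-month controls, 10.39 and 8.43 in the 3-month controls and 5.67 and 6.55 in TTg. Its 3-month controls thus stood above both other groups, with a difference of −3.30 ± 0.61 for TTg (limma adjusted p = 0.646) and one of 3.54 between the control ages. Thbs2 and Thbs3 differed by −0.74 ± 0.31 and −0.72 ± 0.46 between TTg and the 3-month controls. From the 2-month controls, TTg differed by 0.24 for Thbs1 and by −2.95 for Comp, and the contrast between both genes was not tested.

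Chad encodes chondroadherin, a leucine-rich repeat protein of cartilage that links collagen to integrins. It was dim: its mean over the 6 arrays was 3.00, at the 11.2 percentile of all features, and it was the 1 gene of the 10 below the 30th percentile. Values were 3.32 and 2.42 in the 2-month controls, 3.89 and 2.92 in the 3-month controls and 2.92 and 2.51 in TTg. Only replicate 1 of the 3-month controls was above the dim limit of 3.65, and the difference for TTg was −0.69 ± 0.43 (limma adjusted p = 0.766). At so low a signal, array background can shrink or widen a difference, and with an array left out it ran from −1.18 to −0.20.

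Cilp, cartilage intermediate layer protein, binds TGF-beta and is made by cardiac fibroblasts. Its values were 8.68 and 6.77 in the 2-month controls, 10.15 and 8.03 in the 3-month controls and 8.29 and 4.33 in TTg. Replicate 1 of TTg lay within the range of the controls and only replicate 2 was below them, so the groups overlapped. The difference of −2.78 ± 1.31 (6.87-fold lower, 95% interval −5.87 to 0.31, limma adjusted p = 0.690) became −0.80 without replicate 2 of TTg and −4.76 without replicate 1. It was −1.72 without replicate 1 of the 3-month controls and −3.84 without replicate 2.

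Cilp2, the paralogue of Cilp and a marker of cartilage and late scar, showed no such pattern. It was at 4.23 and 4.66, at 4.42 and 4.61 and at 5.09 and 4.41 in the 2-month controls, the 3-month controls and TTg. The span over all arrays, 0.86, was the smallest of the 10 genes, and its highest value was in a TTg heart. TTg exceeded the 3-month controls by 0.23 ± 0.31 (limma adjusted p = 0.912), and the 95% interval of −0.49 to 0.96 bounds the difference on both sides. Its sign turned, to −0.10, without replicate 1 of TTg.

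The start regions of 6 of the 10 genes were found in RefSeq's table for GRCm38.p6, and 3 are printed to set the promoters of 2 genes with wide differences, Angptl7 and Ecrg4, beside that of Cilp2, which hardly differed. Each line gives the 250 bases before the annotated start, 5′ to 3′ on the gene's strand, and capitals mark matches to the motifs named after them.
Angptl7 (chr4:148500463-148500712, minus strand): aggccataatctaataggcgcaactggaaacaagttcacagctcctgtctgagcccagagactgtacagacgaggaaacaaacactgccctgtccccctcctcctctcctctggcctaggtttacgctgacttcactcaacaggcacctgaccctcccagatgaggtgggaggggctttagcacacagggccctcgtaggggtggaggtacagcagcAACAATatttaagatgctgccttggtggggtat
Ecrg4 (chr1:43730352-43730601, plus strand): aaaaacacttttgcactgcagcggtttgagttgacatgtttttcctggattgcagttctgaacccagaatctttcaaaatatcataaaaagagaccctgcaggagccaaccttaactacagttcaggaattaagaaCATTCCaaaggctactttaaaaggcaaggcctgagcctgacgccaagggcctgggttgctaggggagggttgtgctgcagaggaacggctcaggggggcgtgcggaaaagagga
Cilp2 (chr8:69887393-69887642, minus strand): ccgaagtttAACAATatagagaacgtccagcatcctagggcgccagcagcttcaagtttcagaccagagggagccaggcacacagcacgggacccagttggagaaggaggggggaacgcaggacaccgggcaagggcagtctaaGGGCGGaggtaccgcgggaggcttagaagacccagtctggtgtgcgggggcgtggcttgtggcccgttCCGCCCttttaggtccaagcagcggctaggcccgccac
The motifs were searched on both strands in all 32851 promoters of the table. AACAAT, the core bound by SOX factors, which direct cartilage formation, lay 33 to 28 bases before the start of Angptl7 and 241 to 236 bases before that of Cilp2, and 9.42% of all promoters held it. CATTCC, the site of TEAD factors, lay 114 to 109 bases before the start of Ecrg4 and in Thbs4, and in 12.6% of all promoters. The GC box GGGCGG, bound by SP and KLF factors, matched at 106 to 101 and, on the other strand, at 38 to 33 bases before the start of Cilp2. It also matched in Chad and Thbs4, and in 32.7% of all promoters. Chad had the TATA box TATAAA (12.4% of all promoters), none of the 6 held the AP-1 site TGANTCA (6.75%) or the SMAD palindrome GTCTAGAC (0.167%), and Cilp held none of the 6 motifs. No motif was shared by Angptl7 and Ecrg4. The GC content was 54.4% for Angptl7, 48.4% for Ecrg4 and 62.4% for Cilp2, around a median of 52.4% over all promoters.

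Angptl7, a secreted protein of the angiopoietin-like family known from the cornea and the outflow tissue of the eye, was the gene with the lowest difference of all features between TTg and the 2-month controls. It was at 10.61 and 10.41 in the 2-month controls, 10.47 and 6.78 in the 3-month controls and 6.25 and 4.55 in TTg. The 2-month controls were within 0.20 of each other, whereas those at 3 months were 3.69 apart, with replicate 1 at the 2-month level and replicate 2 near TTg. TTg differed from the 3-month controls by −3.23 ± 1.10 (9.35-fold lower, 95% interval −5.81 to −0.64, limma adjusted p = 0.661). Against the 2-month controls the difference was −5.11 ± 1.10 (34.5-fold lower, 95% interval −7.70 to −2.52, limma adjusted p = 0.340). Without replicate 2 of the 3-month controls the first difference was −5.07, and without replicate 1 it was −1.38. The second was −5.01 without replicate 1 of the 2-month controls. Of its 4 measured relatives, Angptl1 had the largest difference upward at 0.63 ± 0.41 and Angptl8, dim on all arrays at 2.58 to 3.33, the largest downward at −0.64 ± 0.24.

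Ccn5, a matricellular CCN protein that lacks the C-terminal module of its relatives and is known to restrain fibrosis in the heart, was lower in TTg than in both control groups. Its values were 10.55 and 9.35 in the 2-month controls, 10.94 and 8.56 in the 3-month controls and 6.93 and 5.66 in TTg. Both control groups covered about the same range and both TTg hearts lay below all 4 control hearts. The difference was −3.46 ± 0.81 from the 3-month controls (11-fold lower, 95% interval −5.37 to −1.54, unadjusted p = 0.00360 and adjusted p = 0.646 in limma). From the 2-month controls it was −3.65 ± 0.81 (12.6-fold lower, limma adjusted p = 0.340), and between the control ages −0.20 ± 0.81. Without replicate 2 of the 3-month controls the first was −4.64, and −2.27 without replicate 1. Without replicate 1 of the 2-month controls the second was −3.06.

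The 5 other CCN genes had a median difference of 0.20, with 3 higher and 2 lower in TTg than in the 3-month controls. Ccn2, the profibrotic connective tissue growth factor, was at 12.53 and 12.21 in the 2-month controls, 15.78 and 12.36 in the 3-month controls and 11.79 and 10.97 in TTg, a difference of −2.69 ± 0.96 for TTg at 3 months. Replicate 1 of the 3-month controls stood alone above the other 5 arrays. Ccn1 differed by −1.97 ± 0.88 with overlapping groups, and Ccn3 was higher in TTg by 0.72 ± 0.37. None of these passed limma's test, the smallest adjusted p being 0.661.

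Ecrg4, the precursor of the secreted peptide augurin, was at 6.93 and 5.45 in the 2-month controls, 8.40 and 5.87 in the 3-month controls and 4.30 and 3.75 in TTg. All 4 control hearts lay above both TTg hearts, whose lower value was close to the dim limit, and the TTg pair was only 0.55 apart. The difference from the 3-month controls was −3.11 ± 0.82 (8.63-fold lower, 95% interval −5.04 to −1.18, limma adjusted p = 0.655), and from the 2-month controls −2.17 ± 0.82 (4.48-fold lower, limma adjusted p = 0.478). The former was −4.38 without replicate 2 of the 3-month controls and −1.84 without replicate 1, and the latter −1.43 without replicate 1 of the 2-month controls.

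Mgp, the matrix Gla protein that keeps cartilage and vessel walls from calcifying, was a brightly measured gene of the heart, at the 96.8 percentile of all features. It was at 16.12 and 13.00 in the 2-month controls, 15.26 and 13.39 in the 3-month controls and 13.20 and 11.80 in TTg. Both TTg values lay below both 3-month control values; the higher of them was above the lower 2-month control. TTg differed by −1.82 ± 1.05 from the 3-month controls (3.54-fold lower, limma adjusted p = 0.748) and by −2.06 ± 1.05 from those at 2 months. The former was −2.76 without replicate 2 of the 3-month controls, −0.89 without replicate 1 and −1.12 without replicate 2 of TTg. The latter was −0.50 without replicate 1 of the 2-month controls, the array with adipocyte and skeletal muscle transcripts.

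Of 9 measured genes that act with Mgp on mineral, 6 were lower in TTg than in the 3-month controls, with a median of −0.14. Enpp1, Ank, Spp1, Runx2 and Fbn1 were in the list but not measured, so it covers the process only in part. Gas6, another vitamin K-dependent protein, differed by −1.17 ± 0.55 and Vkorc1, which recycles vitamin K, by −1.11 ± 0.56. These were the 2 of the 9 genes that lay wholly lower in TTg, a share near the 19.3% of all features. Ahsg, the circulating calcification inhibitor fetuin, differed by 0.85 ± 0.51. The smallest limma adjusted p in the list was 0.688.

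Prg4 encodes lubricin, the proteoglycan that lubricates joints and tendon sheaths. Its values were 8.74 and 8.50 in the 2-month controls, 10.24 and 8.64 in the 3-month controls and 9.07 and 6.94 in TTg. A single TTg heart, replicate 2, lay below all controls while the other lay among them. The difference was −1.44 ± 0.74 from the 3-month controls (2.70-fold lower, limma adjusted p = 0.713) and −0.61 ± 0.74 from the 2-month controls, and without replicate 2 of TTg they were −0.37 and 0.45. The first was −2.23 without replicate 2 of the 3-month controls and −0.64 without replicate 1.

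**Figure D2:**
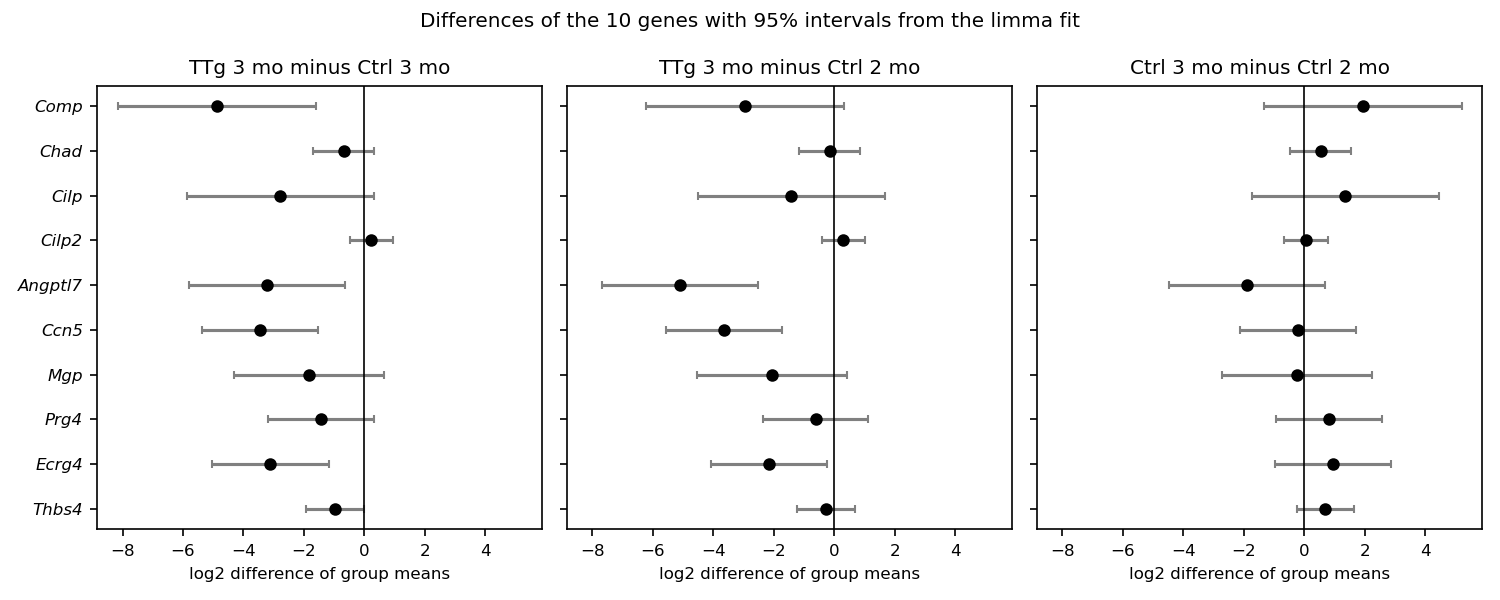
Log2 differences of group means for the 10 genes (points) with 95% intervals from limma (bars), for TTg minus control at 3 months, TTg minus the 2-month control and the 3-month minus the 2-month control. In the first panel the intervals of Comp, Angptl7, Ccn5, Ecrg4 and Thbs4 lie below 0, in the second those of Angptl7, Ccn5 and Ecrg4, and in the third all cross 0.

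Between 2 and 3 months after infarction, the control hearts showed no difference in these genes beyond the distance between replicates. The 3-month mean was higher for 7 genes and lower for Angptl7 (−1.89 ± 1.10), Mgp (−0.23 ± 1.05) and Ccn5, with a median of 0.62 against 0.01 over all features. No gene of the 10 passed limma's test, which 1 feature of all (0.0045%) did, and no gene had an unadjusted p under 0.05. That feature was Adh1, an alcohol dehydrogenase, named after its values were seen. The groups overlapped for all 10, where 18.3% of all features lay wholly higher and 17.4% wholly lower at 3 months. After Comp, the largest upward differences were those of Cilp (1.36 ± 1.31), Ecrg4 (0.94 ± 0.82), Prg4 (0.82 ± 0.74) and Thbs4 (0.70 ± 0.40).

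This count of 0 depended on single hearts. Leaving out replicate 1 of the 2-month controls, which held adipocyte and skeletal muscle transcripts, 7 genes lay wholly higher at 3 months and the median was 0.96, with 32.8% of all features wholly higher. Leaving out replicate 2 of the 3-month controls gave 7 such genes as well (35.2% of all features), a median of 1.10 and 3 genes higher at an unadjusted p under 0.05 (4.46%). The median was 0.24, with 1 gene wholly higher where 36.7% of all features were, without replicate 2 of the 2-month controls, and 0.04 without replicate 1 of those at 3 months. Angptl7 went from −3.73 without replicate 1 of the 3-month controls to −0.04 without replicate 2. Mgp and Ccn5 changed sign, to 1.32 and 0.40 without replicate 1 of the 2-month controls. They were at 0.70 and 0.99 without replicate 2 of the 3-month controls. In the other direction, Cilp2 turned to −0.14 without replicate 1 of the 2-month controls and Ecrg4 to −0.32 without replicate 1 of those at 3 months.

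Set against the 2-month controls, TTg hearts again had lower means for 9 of the 10 genes, with a median of −1.74 against 0.02 over all features. That count was less stable than at 3 months: it was 5 without replicate 2 of TTg and 8 without replicate 1 of the 2-month controls. This comparison shares the TTg arrays with the first and mixes transgene and time, so it is no second measurement. In limma 0 of the 10 passed, as did 0 of all features (0%), although 2156 features had an unadjusted p under 0.05. At that p, 3 genes were lower (Angptl7, Ccn5 and Ecrg4), against 5.41% of all features. Those 3 and Comp lay wholly below the 2-month controls, against 18.9% of all features. The median was −0.50 without replicate 1 of the 2-month controls, −0.66 without replicate 2 of TTg and −2.64 without replicate 2 of the 2-month controls. With the last of these left out, 8 genes did not overlap (34.0% of all features) and 5 were lower at an unadjusted p under 0.05 (8.27%). Leaving out replicate 1 of TTg gave 8 and 5 genes as well, against 32.6% and 3.85% of all features. Angptl7 and Ccn5 stayed at −5.96 to −4.26 and −4.29 to −3.02 over the 14 alternatives.

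The distance between replicates was wide for these genes, though not for them alone. Replicate 1 had the higher value for 9 of the 10 genes in the 2-month controls, 9 in the 3-month controls and 10 in TTg, where 47.2%, 51.0% and 50.4% of all features did. Replicates were more than 1 apart for 5, 7 and 6 of the 10 genes, against 7.47%, 6.28% and 3.85% of all features. All 10 genes had an SE above the median SE of 0.28, and 7 were above its 95th percentile of 0.49. Replicate numbers of different groups are not stated to be linked. The highest of the 6 arrays was replicate 1 of the 3-month controls for 7 genes, replicate 1 of the 2-month controls for Angptl7 and Mgp, and replicate 1 of TTg for Cilp2. The lowest was replicate 2 of TTg for 8 genes, all but Chad and Cilp2.

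As a list, other genes of late scar fibroblasts followed the same arrays, though Aspn and Ogn were highest on replicate 1 of the 2-month controls. All 11 measured genes of that list had lower means in TTg than in the 3-month controls, with a median of −2.41. In 10 of them the groups did not overlap (19.3% of all features), and 8 had an unadjusted p under 0.05 in limma (4.11%). Sfrp2, a Wnt modulator, was at 13.09 and 10.26 in the 2-month controls, 14.12 and 10.88 in the 3-month controls and 10.31 and 6.93 in TTg, a difference of −3.88 ± 1.46. Fmod, a collagen-binding proteoglycan of tendon and cartilage, differed by −3.66 ± 1.21 and Sfrp1 by −3.45 ± 0.87. None of the 11 passed limma's test (adjusted p 0.646 to 0.754).

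Genes that define cartilage itself did not. Of 18 such genes, 8 were higher and 10 lower in TTg than in the 3-month controls, with a median of −0.03, and the list mean stayed between 4.30 and 4.50 on all 6 arrays. Col2a1, the main cartilage collagen, was at 2.96 and 3.11 in the 2-month controls, 3.19 and 3.43 in the 3-month controls and 3.15 and 3.29 in TTg, below the dim limit throughout. Acan, the cartilage proteoglycan aggrecan, lay between 4.22 and 5.0 with a difference of −0.01 ± 0.34. The list's widest difference was that of Sox9, the regulator of cartilage formation that fibroblasts also express, at −1.34 ± 0.65, from 8.85 and 8.18 to 7.48 and 6.86. Epyc, a small proteoglycan, was higher in TTg by 0.95 ± 0.35 (limma adjusted p = 0.661). Col9a1, Col10a1, Col11a1, Matn1, Matn3, Cnmd and Snorc were dim as well. Dim genes have little room to fall, and Sox9, at the 72.1 percentile of all features, was the brightest of the list. With Chad also dim and Cilp2 nearly constant, the arrays cannot decide whether a cartilage-like label suits the 10 genes.

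Tendon genes gave a small difference, with 6 of 7 lower in TTg and a median of −0.47. Mkx, Tnmd and Kera were dim, with means of 3.43, 3.33 and 2.71 over all arrays, and so had little room to fall. Scx, the tendon transcription factor, was at 4.53 and 4.37, at 4.59 and 4.62 and at 4.20 and 4.07 in the 3 groups, and Tnmd stayed between 2.73 and 3.90. Fibin differed by −1.44 ± 0.48 and Tnxb, a matrix glycoprotein, by −0.85 ± 0.28, with a limma adjusted p of 0.661 for both.

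**Figure D3:**
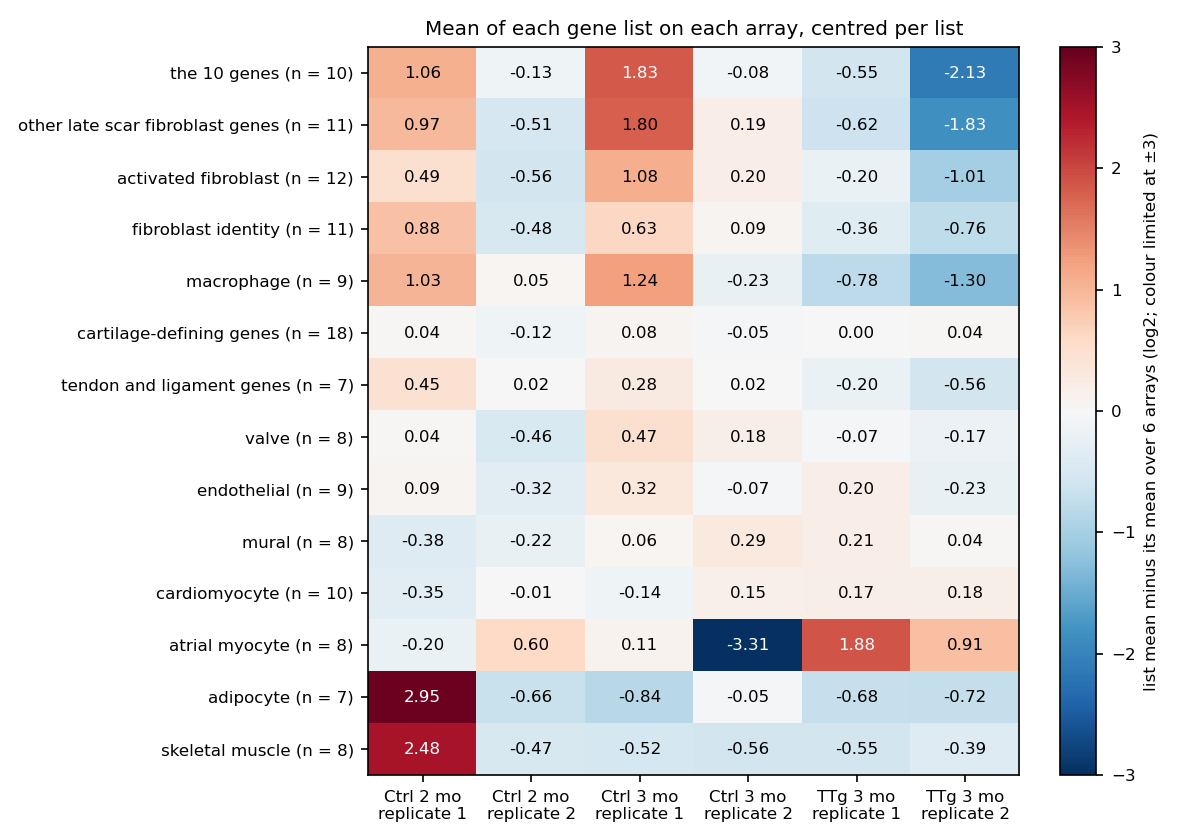
Mean log2 expression of the 10 genes and of 13 other gene lists on each of the 6 arrays (columns), centred on the list's mean over the arrays, with n the number of measured genes and colour limited at 3 in both directions. The 10 genes run from 1.83 on replicate 1 of the 3-month controls to −2.13 on replicate 2 of TTg. The late scar, activated fibroblast and macrophage lists are highest and lowest on the same arrays. The fibroblast identity list is also lowest on replicate 2 of TTg but highest on replicate 1 of the 2-month controls (0.88). In the identity and activated lists, replicate 2 of the 2-month controls (−0.48 and −0.56) lies below replicate 1 of TTg (−0.36 and −0.20). The cartilage-defining list stays within 0.12 of its mean.

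Marker genes of fibroblasts and of macrophages were lower in TTg as well. Of 11 fibroblast identity genes, 10 were lower in TTg than in the 3-month controls, with a median of −0.96. In 8 the groups did not overlap (19.3% of all features). List means were 11.68 and 10.32 in the 2-month controls, 11.43 and 10.89 in the 3-month controls and 10.45 and 10.04 in TTg. Tcf21, whose promoter drives the Cre, was at 8.48 and 4.98, at 7.51 and 6.42 and at 5.23 and 4.98 in the same order, a difference of −1.86 ± 1.0. Activated fibroblast genes were lower in 10 of 12, with a median of −1.34 and list means of 8.76 and 7.71, 9.35 and 8.47, and 8.07 and 7.25. Postn, a matrix protein of the healing scar, differed by −3.09 ± 1.09 and the collagen crosslinking enzyme Lox by −2.83 ± 0.52. Acta2, smooth muscle actin of contractile fibroblasts and of vessel walls, was an exception. It was at 13.35 and 11.48 in the 2-month controls, 12.82 and 13.69 in the 3-month controls and 14.67 and 14.62 in TTg, above all controls, with a difference of 1.39 ± 0.59 (limma adjusted p = 0.665). It falls outside the rule for named genes and was chosen after its values were seen.

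Macrophage genes were lower in 9 of 9, 7 without overlap (19.3% of all features), with a median of −1.51. Their list means were 10.31 and 9.33 in the 2-month controls, 10.52 and 9.05 in the 3-month controls and 8.50 and 7.98 in TTg, and the largest difference was that of Ctss at −2.41 ± 0.69. Valve genes, whose cells share much matrix with cartilage, were lower in 5 of 8, with Vcan at −2.09 ± 0.36, list means of 7.21 and 6.92 in the 3-month controls and 6.67 and 6.57 in TTg, and the valve marker Wif1 at 0.39 ± 0.28. Endothelial and cardiomyocyte lists had medians of −0.07 and 0.04. The cardiomyocyte list had array medians of 18.68 to 19.11, close to the highest value of any feature (19.93), so its genes had little room to rise. None of these genes passed limma's test, and the part of each cell type in the differences of the 10 genes was not tested.

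Relative to the fibroblast genes on the same array, most of the 10 genes were still lower. The median of the 10 genes minus the median of the fibroblast identity list was −4.55 and −4.62 in the 2-month controls, −2.98 and −4.26 in the 3-month controls and −4.94 and −6.62 in TTg. Both TTg hearts lay below all 4 controls, with a difference of −2.16 from the 3-month controls. With the activated fibroblast list in its place the difference was −1.68, but replicate 1 of TTg, at −1.55, then lay level with controls at −1.56 and −1.59. With means of both lists in place of medians, the difference relative to the fibroblast identity list was −1.30. Replicate 1 of TTg, at −3.44, was then level with replicate 2 of the 3-month controls, at −3.41. Gene by gene, after subtraction of the fibroblast median, 7 of the 10 genes were lower in TTg than in the 3-month controls. The median of these differences was −1.28. Comp was at −3.87, Ccn5 at −2.44, Angptl7 at −2.21, Ecrg4 at −2.10 and Cilp at −1.76, followed by Mgp at −0.81 and Prg4 at −0.42. Thbs4 (0.04), Chad (0.33) and Cilp2 (1.25) were not lower on this scale. These are values without a test.

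Genes that act around these proteins were read from the same fit. Of 30 TGF-beta and BMP pathway genes, 25 were lower in TTg than in the 3-month controls, with a median of −0.30. At an unadjusted p under 0.05 in limma, 7 were lower (4.11% of all features). The ligand Tgfb2 differed by −2.25 ± 0.56, the latent TGF-beta binding protein Ltbp2 by −1.98 ± 0.39 and the ligand Tgfb3 by −1.71 ± 0.66. Among 12 cell surface receptors for the encoded proteins, 10 were lower, with Cd44, the hyaluronan receptor that also binds lubricin, at −1.76 ± 0.51 and the integrin subunits Itga5 and Itgb5 at −1.19 ± 0.36 and −1.19 ± 0.40. Of 9 enzymes that cut or process COMP, 6 were lower with a median of −0.34. Adamts7, a protease that degrades COMP, was the exception in size and direction. It was at 6.91 and 6.96 in the 2-month controls, 5.53 and 6.08 in the 3-month controls and 6.79 and 7.73 in TTg, higher in TTg by 1.46 ± 0.36 (limma adjusted p = 0.646). Its 3-month controls were the low group, opposite to Comp, and TTg differed from the 2-month controls by 0.33.

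**Figure D4:**
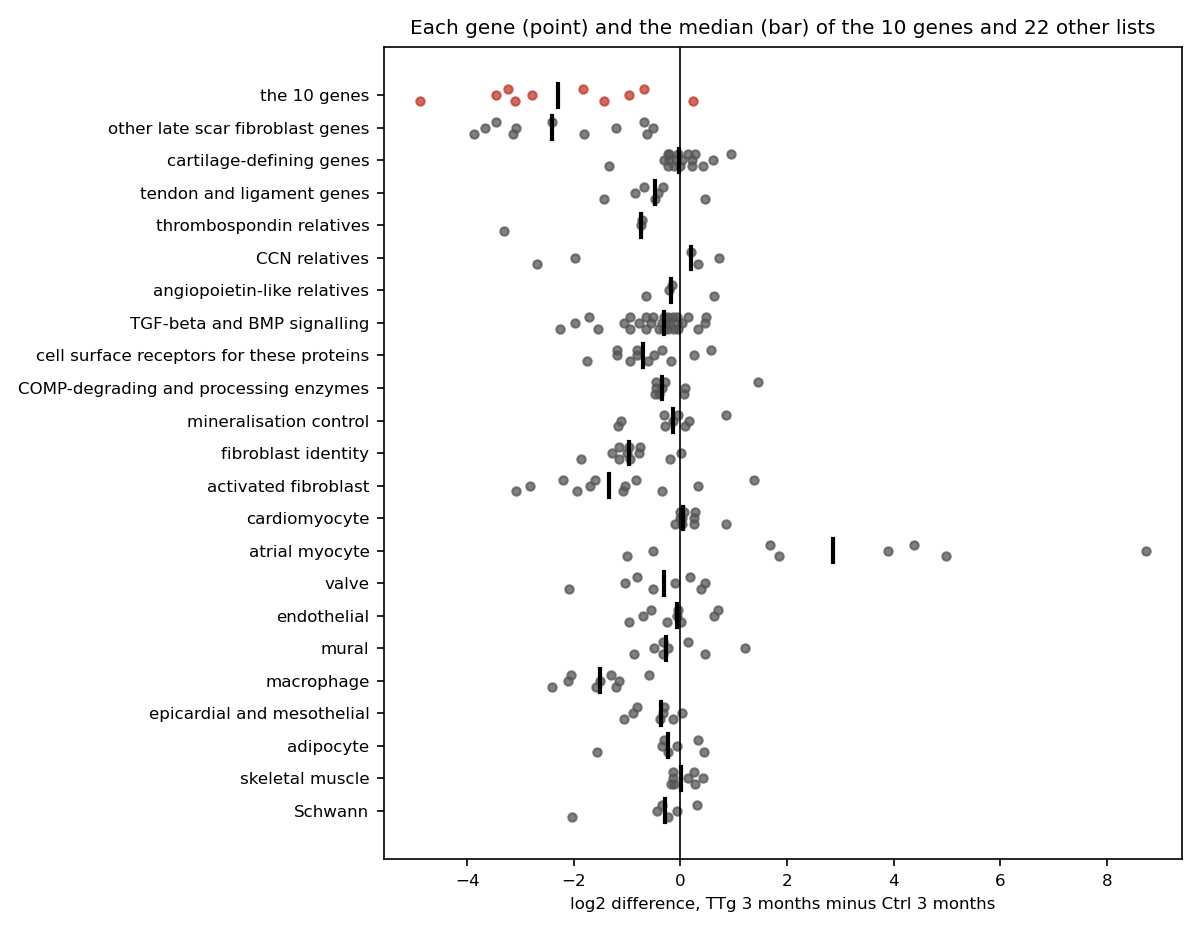
Log2 difference between TTg and control at 3 months (horizontal axis) for every measured gene of the 10 genes and of 22 other lists (points), with the median of each list as a bar. The medians of the 10 genes (−2.30) and of the other late scar fibroblast genes (−2.41) are the lowest, and the cartilage-defining list is at −0.03. The wide atrial values include Myl7, which was at 3.45 on 1 control array. The largest atrial difference is 8.73, and against the 2-month controls, which do not include that array, the largest is 7.05.

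The features with the most similar course over the 6 arrays were named by a fixed measure. Likeness was the root mean square of the log2 differences between a feature's centred values and the mean centred course of the 10 genes, over 6 arrays and 13841 features that were not dim and had 1 symbol. Svep1, a large matrix adhesion protein, was nearest at 0.14, with values of 8.90 and 7.48 in the 2-month controls, 9.73 and 7.56 in the 3-month controls and 7.46 and 5.59 in TTg. Fibronectin (Fn1) followed at 0.16, the microfibril protein Mfap5 at 0.22, the macrophage lysozyme Lyz2 at 0.23, Tmem176b at 0.25, the collagen gene Col1a2 at 0.26, the protease inhibitor Timp1 at 0.28, Ctss at 0.29, Olfml3 at 0.30 and Fxyd6 at 0.32. Of the 10 genes themselves, Ecrg4 was nearest to their mean course at 0.51 and Angptl7 farthest at 1.5. By gene, the nearest features were Sfrp2 (0.52) for Comp, H2ac15 (0.35) for Ccn5, Selp (0.19) for Mgp and Ctsa (0.05) for Chad.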

How the data were processed

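Whole-heart RNA (100 ng, integrity number above 7.0) was hybridised to 6 arrays, 1 per heart. The authors deposited log2 values per feature. Per the submitters' processing notes, Transcriptome Analysis Console 4.0 was used. The background correction and normalization are not given in the sources used here. No depth exists for arrays, and their number limits the precision.

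Features were named through the platform annotation, 19572 of 22206 with 1 symbol. All features entered 1 limma fit (limma 3.58.1, R 4.3.3) with a coefficient per group, without further normalization. Tests were two-sided with Benjamini-Hochberg adjustment over all features, with an adjusted p under 0.05 as the threshold. An exact permutation of 2 against 2 hearts cannot go below p = 0.333. Errors are SEs of differences, with 3 residual and 4.13 prior degrees of freedom. Features under the 30th percentile of mean signal (3.65) were called dim.

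The 10 genes and the 22 lists (212 of 229 genes measured) were chosen with earlier results of these data known, so no list was tested. From each list, defining markers and the genes with the largest differences between TTg and control at 3 months were named, and the nearest features by the measure of likeness. Promoter sequences are RefSeq's. Alternatives were quantile normalization, median centring, a robust prior, an intensity trend, dim features left out, a fit of only the groups compared, the replicate number as a block, a 2-fold minimum with an unadjusted p, and each array left out. The counts by unadjusted p and overlap with an array left out were added after the data had been seen. The fit was tested on simulated data.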

Additional observations from a re-analysis of the deposited data

How the results depend on the processing

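Over 14 alternatives and 3 comparisons, 407 of 417 values of the 10 genes kept their side of the threshold and 10 gained a call. All of those came with the replicate block or the unadjusted p with a 2-fold minimum. With the block, 2 of the 10 genes passed for TTg against control at 3 months, Comp (adjusted p = 0.005) and Ccn5 (0.0457), with 11 features in all, and 1 passed against the 2-month controls, Comp (0.0327), with 5. The numbers are not known to pair hearts, as no label says what a number shares. Differences between replicates correlated across features at r = 0.133, 0.136 and 0.12 between groups. These values cannot decide the matter, because most features differed little between replicates (median absolute difference 0.27 to 0.32). With an unadjusted p and a 2-fold minimum, 4 genes (Comp, Angptl7, Ccn5, Ecrg4) of 666 features and 3 (Angptl7, Ccn5, Ecrg4) of 877 passed, and 608 features between the control ages. Features called for TTg at 3 months were 1 with all arrays, 2 with the compared groups alone and 0 to 2 with an array left out. Between the control ages they were 1, but 0 with quantile normalization, an intensity trend or dim features left out, and 0 to 6 with an array left out. Against the 2-month controls they were 0, 1 with a robust prior, and 0 to 22. With an array left out, non-overlapping genes numbered 6 to 10, 0 to 7 and 4 to 8 in the 3 comparisons in that order. The share of all features was 31.5% to 36.7% where the array belonged to a compared group. For the calls, a group left with 1 array has no spread of its own, and that of the remaining groups stands in. Relative to fibroblast genes, the 3-month controls differed from those at 2 months by 0.96, but by 0.11 with the activated list and 0.25 with means. Signal near background limits Chad.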
